A study of Mus musculus with 16 samples.

Results

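Cluster 10 is a cluster of microglia in a single-cell RNA data set of the injured mouse spinal cord, with the working name activated microglia. Its members are all cells that the deposited cell table assigns to Cluster 10, which the annotation there calls Microglial, and they number 813 of 18203 cells. The study drew its clusters from these same gene counts, so differences between Cluster 10 and other clusters are given as descriptions with no test. Ryk is a cell-surface receptor for Wnt proteins, and the study asked what its loss from astrocytes does to the response to a dorsal column lesion of the cervical cord, microglia included. Cells were dissociated from tissue around the lesion core of mice 8 to 10 weeks old and sequenced as 1 library per mouse, 2 mice in each of 8 groups and 16 mice in all.

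The groups cross genotype with time. The mutant mice carried Rykfl/fl,GFAPcreERT2 (called cKO here) and their controls Ryk+/+,GFAPcreERT2 (called WT here), so Cre was present in both, driven by the GFAP promoter, which is active in astrocytes, and both received tamoxifen. Tissue was taken from uninjured mice (named Sham in some labels) and at 3 times after the lesion, namely 1 d, 7 d or 14 d. Actinomycin D, an inhibitor of transcription, was present while cells were dissociated in every group.

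Microglia are the resident macrophages of the central nervous system, and in the intact cord they survey the tissue with fine processes and express receptors such as P2ry12, which senses ADP. After damage they can take on a state with high expression of genes for lipid transport, lysosomal breakdown and phagocytosis, among them Apoe, Lpl, Gpnmb, Ctsd and Spp1, while receptors of the resting state are expressed at lower levels. They also release chemokines, small proteins that attract monocytes and other leukocytes from the blood.

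The unit of comparison is the mouse: unique molecular identifiers (UMIs, the molecules counted) were summed over the Cluster 10 cells of each mouse and given as counts per 1000000 UMIs (CPM). Cluster 10 held 3778788 UMIs in all, from 22464 genes, and a median of 1119 UMIs per cell (quartiles 745 and 3879, range 225 to 49852). 14 mice had at least 10 Cluster 10 cells and were compared, with 13 to 175 cells and 23562 to 978701 UMIs each (median 183620). A single UMI is thus a far higher CPM value in the smallest libraries than in the largest. The other 2 were cKO uninjured replicate 1, with 0 of 208 cells in Cluster 10 (a limit of 3 counts allows a share of up to 1.44%), and WT 1 d replicate 2, whose library holds 1 cell with 266 UMIs. Values of single mice are listed with WT before cKO and replicate 1 before replicate 2, so the 3 uninjured values are WT 1, WT 2 and cKO 2, the 3 values at 1 d are WT 1, cKO 1 and cKO 2, and 7 d and 14 d have all 4 mice.

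Depth differed between times. The median Cluster 10 cell had 933, 638 and 808 UMIs in the uninjured mice, 654, 742 and 1453 at 1 d, 622, 1458, 985 and 1884 at 7 d, and at 14 d it had 5148, 5554, 13048 and 2186 UMIs. All 4 mice at 14 d were deeper than all mice of the earlier times. Mitochondrial transcripts made up 3.77, 5.40 and 5.77% of Cluster 10 UMIs without injury, 4.05, 3.42 and 2.73% at 1 d, 2.96, 2.21, 2.80 and 1.47% at 7 d, while at 14 d they made up 1.28, 1.71, 1.46 and 1.55%, so this share also differed between times. The part of depth and of mitochondrial share in the differences between times was not tested, beyond the values given for cells thinned to equal depth.

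Some libraries stand apart or go against their labels. The 4 replicate-1 mice of 1 d and 7 d, in the order WT 1 d, cKO 1 d, WT 7 d and cKO 7 d, were shallow, with medians of 414, 421, 414 and 548 UMIs over all their cells, against 1040.5 to 3637 in the other mice with more than 1 cell. In 6 mice, all of them replicate 2, the names of the cells give another condition than the sample title. The cell names put cKO uninjured replicate 2 in WT 7 d, WT uninjured replicate 2 in cKO uninjured, WT 1 d replicate 2 in WT 14 d, WT 7 d replicate 2 in WT 1 d, WT 14 d replicate 2 in cKO 14 d and cKO 14 d replicate 2 in cKO 7 d. For 2 of them some Cluster 10 genes, chosen after their values were seen, lie with the title: WT 7 d replicate 2 had 985 CPM of Gpnmb, 257 of Cst7 and 315 of P2ry12, each above all mice at 1 d, and 49.7 of Ccl2, below all of them. The mouse cKO uninjured replicate 2 had 0 UMIs of Gpnmb, Cst7 and Fn1, like the other uninjured mice, and every mouse at 7 d had UMIs of each. Its Lpl (764 CPM) and Spp1 (424 CPM) lay above the other uninjured mice, toward the cell name, and below every mouse at 7 d. For the other 4 mice this was not tested, and the groups used here follow the titles. Counts are therefore also given without these 6 mice, with the conditions of the cell names, without the 4 shallow mice, and with every cell thinned to 500 UMIs. 166 cell barcodes occurred in more than 1 library and covered 432 cells, 21 of them in Cluster 10, and 4 barcodes were shared between libraries within Cluster 10. In Cluster 10, haemoglobin transcripts were high in 1 mouse, cKO 1 d replicate 2.

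Ryk itself was scarce in Cluster 10. Of its 101 UMIs, the WT mice (replicates 1 and 2) had 0 and 0 without injury, and at 1 d 0 and 0, at 7 d 2 and 5, at 14 d 6 and 30. The cKO mice had 0 and 0 without injury, then 1 and 4, 3 and 9, and 28 and 13 at the 3 times after it. Neither genotype was free of Ryk UMIs at 7 d or 14 d, and the ranges of the genotypes overlapped. In astrocytes, at which the deletion is aimed, Ryk was at 123 and 54.0 CPM in WT and 66.1 and 85.1 CPM in cKO without injury, 101 CPM in WT 1 d replicate 1 and 23.0 and 69.0 CPM in cKO at 1 d (6, 1 and 64 UMIs), 157 and 116 CPM in WT and 90.1 and 119 CPM in cKO at 7 d, and 105 and 108 CPM in WT and 121 and 123 CPM in cKO at 14 d. Both cKO mice were below the WT mouse at 1 d and above both WT mice at 14 d, and the genotypes overlapped at the other times. The sequenced tags come from the 3′ end of the transcript and may lie outside the deleted piece.

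Cluster 10 cells carried the transcripts of microglia. All 14 genes of the microglia identity list were detected, and together they reached 5729.5 to 17741 CPM per mouse. C1qa, a subunit of the complement protein C1q made by microglia, ran from 4237 to 9882 CPM (median 5484) and had a UMI in 90.2% of the cells. The fractalkine receptor Cx3cr1 ran from 695 to 4124 CPM (median 1708). Of the 5 markers given for the activated state, Apoe and Ctsd were in every mouse, Spp1 and Lpl were high in the injured mice with few or no UMIs in 2 of 3 uninjured mice, and Gpnmb was high at 7 d and 14 d only. Spp1, a secreted phosphoprotein that binds integrins (osteopontin), was at 38.9, 0 and 424 CPM in the 3 uninjured mice and at 1225 to 12064 CPM (median 4539) in the 11 injured mice. Gpnmb, a transmembrane glycoprotein of phagocytes, had 0 UMIs in the 57 cells of the uninjured mice and in 2 of the 3 mice at 1 d. The 5 markers thus occur together in the mice of 7 d and 14 d, whereas at 1 d Spp1 and Lpl were high with little Gpnmb and with Apoe below the uninjured mice, and the uninjured mice had Apoe and Ctsd with little Spp1 and no Gpnmb. Their Spp1 and Lpl UMIs came mostly from cKO uninjured replicate 2, a mouse that the cell names place in WT 7 d.

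Markers of other cells were looked at as whole lists, each given as its sum per mouse. Of 13 monocyte and macrophage genes 12 were detected; Ly6c2, which marks inflammatory monocytes, was at 0 and Ccr2, their chemokine receptor, had 6 UMIs. That list summed to 661, 2159 and 891 CPM without injury, 3707, 2876 and 526 CPM at 1 d, 9562, 7602, 6555 and 2976 CPM at 7 d and 5389, 2884, 3774 and 4164 CPM at 14 d, and its most abundant gene was Lyz2, the lysozyme of myeloid cells. Every mouse at 7 d and 14 d lay above the 3 uninjured mice, and the times after injury overlapped. The neutrophil list summed to 0 to 428 CPM with Csf3r its most abundant gene and Retnlg, Mmp9 and Ly6g at 0, and the border-associated macrophage list to 0 to 611 CPM with Stab1 the most abundant and Lyve1 at 0. Dendritic cell genes reached at most 38.9 CPM (most abundant Flt3, with Cd209a, Ccr7 and Klrd1 at 0), lymphocyte genes 5.15 CPM (Ms4a1, with Cd3e, Trbc2 and Nkg7 at 0) and fibroblast genes 73.2 CPM (Col1a2, with Lum at 0). These 3 lists were near 0 in Cluster 10.

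Genes of neighbouring tissue cells were present at low to moderate sums. The oligodendrocyte list, led by the myelin gene Mbp, summed to 1401, 4829.9 and 2886 CPM without injury, 937, 1938 and 2411 CPM at 1 d, 1604, 1702, 1652 and 3127 CPM at 7 d and 786, 1436, 929.8 and 1787 CPM at 14 d. Neighbouring times overlapped in that sum, and WT uninjured replicate 2 was highest. The astrocyte list (led by Slc1a3) summed to 31.3 to 996 CPM, the neuron list (Nefl) to 0 to 424 CPM and the endothelial list (Flt1) to 66.1 to 329.95 CPM, with no list member at 0 over all mice. Haemoglobin and the other red blood cell genes, led by Hbb-bs, summed to 16215 CPM in cKO 1 d replicate 2 and to 0 to 663 CPM in the other 13 mice. Doublets were not called and ambient RNA was not removed, so their part in these sums was not tested.

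The 25 genes with the highest ratio to all other cells of the data set include the apolipoproteins Apoc4, Apoc1 and Apoe, the chemokines Ccl3 and Ccl4, and all 5 markers given. Among genes with a UMI in at least 10% of its cells, the highest ratio of pooled CPM to the pooled CPM of all other cells belonged to Apoc4, an apolipoprotein, at 115 CPM and a ratio of 154. The pooled values weigh the deep mice of 14 d most: Apoc4 had 0 UMIs without injury, 1 at 1 d, 9, 5, 17 and 6 in the mice at 7 d, and 181, 61, 102 and 52 in those at 14 d. Lpl, the lipase that splits triglycerides, followed at 1119 CPM (69.2), and Apoc1, a further apolipoprotein, stood at 421 CPM (63.5). Cst7, which encodes an inhibitor of lysosomal cysteine proteases, had 350.4 CPM and a ratio of 65.8. The chemokines Ccl3 and Ccl4 had ratios of 48.2 and 46.6, Gpnmb 61.4, Spp1 49.1, and Ch25h, the enzyme that makes a hydroxylated form of cholesterol, 46.0. Itgax (an integrin subunit), Plau (urokinase) and Clec7a (a receptor for beta-glucans) followed with 39.1, 36.5 and 33.8. Ctsd, a lysosomal protease, and Apoe were the most abundant of the 25 leading genes after pooling, with 12532 and 40705 CPM and ratios of 23.2 and 20.1. The other 11 leading genes were Cd72, Olfr111, Rgs1, Cox6a2, Bcl2a1d, Bcl2a1a, Igf1, Hmox1, Cd22, Bcl2a1b and Ly9. Reads of the near-identical Bcl2a1a, Bcl2a1b and Bcl2a1d cannot be told apart with certainty.

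Within mice, Cluster 10 differed from Cluster 6, the other microglial cluster (1316 cells), among others by higher Spp1, Lgals3, Lpl and Apoe and lower P2ry12 and Siglech. 14 mice had at least 10 cells in both, and the value per mouse is the log2 of the ratio of CPM after adding 50 to each. Of 2013 genes with a mean of at least 100 CPM in either cluster, 57 were higher in Cluster 10 by at least 1 on this scale and 133 lower. Spp1 led, with 4371 against 216 CPM on average and a log2 ratio of 4.02 ± 1.82 (mean ± SD, n = 14). Lpl (2.52 ± 1.35), the fatty acid-binding protein Fabp5 (2.46 ± 1.50), Apoe (2.20 ± 1.38) and Gpnmb (2.37 ± 2.00) belonged to lipid handling or to the damage-associated state. Lgals3, a galectin of phagocytes (2.67 ± 1.22), the chemokines Ccl4 (2.51 ± 1.87) and Ccl3 (2.20 ± 1.01), Lyz2 (2.23 ± 0.83) and the growth factor Igf1 (2.08 ± 1.25) completed the 10 genes with the largest positive means. Spp1 was higher in Cluster 10 in 13 of 14 mice, Lpl in 12, Apoe in 13 and Gpnmb in 9.

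Lower in Cluster 10 were, among others, P2ry12, Siglech and Tmem119, which are expressed by resting microglia. P2ry12 averaged 286 against 1411 CPM, a log2 ratio of -2.34 ± 0.63, and was lower in Cluster 10 in 14 of 14 mice. The lectin Siglech (-1.95 ± 0.44) and the membrane protein Tmem119 (-1.81 ± 0.89) were lower on average, and Cx3cr1 (-1.22 ± 0.58) less so. Csmd3 had the lowest mean (-2.72 ± 0.84), and Cacnb2 (-2.28), Gm10790 (-1.89), Agmo (-1.76), Tanc2 (-1.76), Fgd2 (-1.72) and Rapgef5 (-1.71) completed the 10. Trem2, a lipid-sensing receptor of phagocytes (0.30 ± 0.32), differed less between the clusters, while its adaptor Tyrobp (0.84 ± 0.46), the endosomal protein Cd68 (0.75 ± 0.72) and Ctsd (1.14 ± 0.59) had positive means. With 10 in place of 50 added to each CPM, 93 genes were higher in Cluster 10. Depth differed as well: the median cell of Cluster 10 had fewer UMIs than that of Cluster 6 in 8 of the 14 mice (1884 against 12214 in cKO 7 d replicate 2) and more in 6, the replicate-1 mice after injury (985 against 530 in cKO 7 d replicate 1), and its part in these ratios was not tested.

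**Figure D1:**
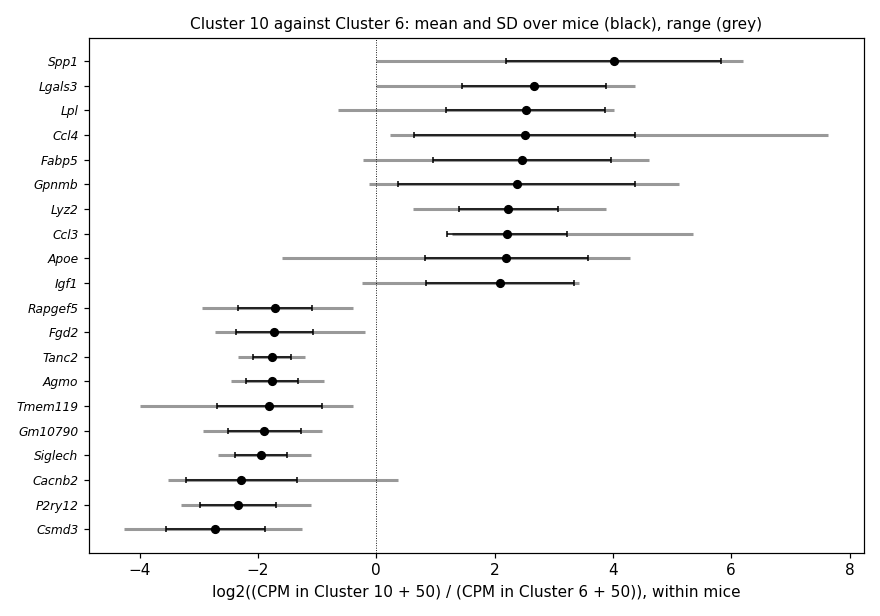
Within-mouse log2 ratio of CPM in Cluster 10 to CPM in Cluster 6 (horizontal axis, after adding 50 to each) for the 10 genes with the highest and the 10 with the lowest mean: black marks the mean ± SD and grey the range over 14 mice. Spp1 has the highest mean (4.02) and Csmd3 the lowest (-2.72).

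The smaller immune clusters differed from Cluster 10 in other genes. Against Cluster 12, named Immuno in the deposited annotation (288 cells; 10 mice with at least 10 cells in both), Lyz2 was lower in Cluster 10 (-1.73 ± 1.48) and Cx3cr1 (2.36 ± 0.78), Ctsd (3.53 ± 2.08) and Lpl (3.07 ± 1.70) were higher. Against Cluster 16, named myeloid cells (119 cells; 5 mice), Lyz2 (-1.98 ± 0.73) and Lgals3 (-1.61 ± 1.16) were lower in Cluster 10, and Cx3cr1 (3.89 ± 0.87) and Trem2 (3.96 ± 1.28) higher. Lyz2 thus lay between Cluster 6 and the other immune clusters, and Cx3cr1 was below Cluster 6 and above both of them.

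The first comparison asks how the cells changed between 1 d and 7 d after the lesion, over both genotypes. The genotypes weigh equally in the fitted change, and WT at 1 d is WT 1 d replicate 1 alone. Ccl2, Ccl7 and Ccl12 were among the genes that fell, and Apoe, Gpnmb and Cst7 among those that rose. Of 6788 genes tested, 51 passed an adjusted p of 0.05 in edgeR (0.751% of those tested), 33 of them higher at 7 d (0.486%) and 18 lower (0.265%). In 48 of the 51 the mice of the 2 times did not overlap. Overlap was counted among called genes only, with no share over all genes, so this count adds no evidence to the calls. DESeq2 called 62, and 944 genes had an unadjusted p under 0.05. The setting without the 4 shallow mice leaves 1 mouse at 1 d, cKO 1 d replicate 2, which is the mouse high in haemoglobin. The balance of directions depended on the scaling and the mice: DESeq2 gave 28 higher and 34 lower, without the 4 shallow mice edgeR gave 7 higher and 18 lower, and with the series of animal numbers as a term it gave 84 higher and 27 lower. The median log2 change of all genes tested was 0.52, or 0.51 with genes of 0 UMIs at their bound, and it moved by -0.41 with DESeq2, by -0.50 without the 4 shallow mice, by -0.62 under the cell names, by -0.43 in cells thinned to 500 UMIs, by -0.36 without the mice named otherwise, by -0.44 without WT 1 d replicate 1, by -0.29 without WT 7 d replicate 2 and by 0.44 without cKO 1 d replicate 2; changes are to be read against these medians. Grouping by the cell names left 3 calls (Ccl2, Apoe and Gpnmb; 2 higher and 1 lower), thinned cells 3 (Ccl2, Ccl12 and Gpnmb; 1 higher and 2 lower), without the mice named otherwise 20 and without the 4 shallow mice 25, of which 7 were among the 51. Leaving out 1 mouse gave 12 without WT 7 d replicate 2, 15 without cKO 1 d replicate 2, 95 without WT 14 d replicate 1 and 96 without WT 14 d replicate 2.

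The calls of the genes whose values are given next depended on the settings too, and log2 changes are given where a setting moved them by more than 1.5 times. By DESeq2 Axl (adjusted p = 0.0657) and P2ry12 (0.0624) were not called, and Ccl7 and Tgfbi got no adjusted p and so no call. The log2 change there was 3.63 for Csf3r. Without the 4 shallow mice Ccl2, Ccl12, Gpnmb, Cst7, Apoc1, Igf1 and Adam8 kept their calls, and the other 13 had adjusted p from 0.0508 to 0.948. There the change was -8.37 for Ccl2, 4.03 for Cst7, 4.39 for Igf1, 4.63 for Colec12, 1.93 for Csf3r, -0.95 for C5ar1 and -0.24 for Tgfbi. Without the mice named otherwise Axl (adjusted p = 0.142), Csf3r (0.137), P2ry12 (0.161), Adam8 (0.0548) and Tgfbi (0.178) were not called. The log2 change there was -7.80 for Ccl2 and -6.44 for Ccl7. Under the cell names Ccl2, Apoe and Gpnmb kept their calls, and the other 17 had adjusted p from 0.0739 to 0.687. There the change was -7.17 for Ccl2, 2.51 for Apoe, 1.88 for Cst7, 3.13 for Apoc1, 0.96 for Axl, 1.40 for Fabp5, 3.22 for Colec12, 0.91 for Csf3r, 1.01 for P2ry12, 1.40 for Lyz2, -1.78 for Msr1 and -1.40 for Adam8. In thinned cells Ccl2, Ccl12 and Gpnmb kept their calls, and the other 14 tested had adjusted p from 0.15 to 0.437. The log2 change there was 1.75 for Igf1, 1.35 for Fabp5, 4.28 for P2ry12 and -4.79 for Tgfbi. With at least 30 cells per mouse Fabp5 was not called (0.0613).

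Ligands of the monocyte receptor Ccr2 fell together. Ccl2 stood at 0, 183 and 0 CPM without injury, 774, 907 and 1262 CPM at 1 d, 0, 49.7, 46.2 and 3.89 CPM at 7 d and 14.8, 9.89, 13.3 and 19.8 CPM at 14 d. All 3 mice at 1 d were above all 8 later mice, and the uninjured mice had UMIs in 1 of 3. Its log2 change from 1 d to 7 d was -4.66 ± 0.59 (SE), edgeR adjusted p = 3.81e-05, and it was called in all 23 refits. Ccl2 changed by -7.85 without WT 7 d replicate 2. Ccl12 was at 38.9, 146 and 934 CPM without injury, 1426, 719 and 2535 CPM at 1 d, 149.7, 182, 75.1 and 136 CPM at 7 d and 29.6, 16.1, 26.6 and 46.2 CPM at 14 d. Here too every mouse at 1 d was above every mouse at 7 d and 14 d, and cKO uninjured replicate 2 lay within the range of 1 d. Its change was -3.27 ± 0.48 (SE), edgeR adjusted p = 0.000265, and it kept its call in 22 of 23 refits, missing it under the cell names (adjusted p = 0.0739). Ccl7 had 407, 125 and 92.7 CPM at 1 d and 0, 12.4, 5.78 and 7.78 CPM at 7 d, a change of -4.25 ± 0.75 (SE), edgeR adjusted p = 0.00434. Ccl7 changed by -6.50 without WT 7 d replicate 2. Ccl7 lost its call without WT 1 d replicate 1 (0.121) or cKO 1 d replicate 2 (adjusted p = 0.0631). The 3 genes lie close together on chromosome 11 (Ccl2 chr11:82035571-82037453, plus strand; Ccl7 chr11:82045712-82047525, plus strand; Ccl12 chr11:82101845-82103400, plus strand; GRCm38). Of 21 chemokines and cytokines 17 were tested, these 3 fell and none rose, with a median log2 change of -0.43 against 0.52 for all genes. Of all genes tested, 0.265% were called lower. The receptor of these ligands, Ccr2, had 6 UMIs in Cluster 10. Ccl3 (1141, 1188 and 757 CPM at 1 d and 556, 282, 531 and 369.5 CPM at 7 d) and Ccl4 (1426, 1657 and 2308 CPM at 1 d and 385, 505, 669.9 and 611 CPM at 7 d) were not called.

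Apoe, Gpnmb, Cst7 and Apoc1 rose from 1 d to 7 d, Apoe by the largest amount of RNA. Apoe was at 8326, 11306 and 19693 CPM without injury, 4726, 7003 and 933 CPM at 1 d, 54696, 28800.5, 68469 and 31049 CPM at 7 d and 80285, 47566, 35465 and 37253 CPM at 14 d. The 3 mice at 1 d lay below every other mouse, the uninjured ones included, and 7 d and 14 d overlapped. The change was 3.85 ± 0.65 (SE), edgeR adjusted p = 0.00183; the call was kept in 21 of 23 refits and missed without the 4 shallow mice, where 1 mouse is left at 1 d (log2 change 4.90, adjusted p = 0.0508), and in thinned cells (3.35, 0.15). Gpnmb was at 0, 0 and 0 CPM without injury, 204, 0 and 0 CPM at 1 d, 2588, 985, 1386 and 455 CPM at 7 d and 234, 544, 949 and 434 CPM at 14 d. 5 UMIs were found at 1 d, all in WT 1 d replicate 1, and every mouse at 7 d and 14 d was higher. It changed by 7.29 ± 0.94 (SE), edgeR adjusted p = 5.17e-05, and all 23 refits called it; pooled over mice the ratio of 7 d to 1 d was 49.9 (95% counting interval 21.3 to 154). The fitted change of Gpnmb was 11.13 without WT 1 d replicate 1. Cst7 had 0, 0 and 0 CPM without injury, 0, 62.5 and 15.5 CPM at 1 d, 278, 257, 519.8 and 288 CPM at 7 d and 263, 456, 444 and 308 CPM at 14 d, again with no overlap between 1 d and the later times. Its log2 change was 6.62 ± 1.08 (SE), edgeR adjusted p = 0.00147 and the pooled ratio 16.7 (95% counting interval 7.05 to 51.8), and it was called in 21 of 23 refits, not under the cell names (0.46) nor in thinned cells (0.213). Cst7 changed by 4.11 without WT 1 d replicate 1. Apoc1, which is carried with Apoe on lipoproteins, had 81.5, 31.3 and 5.15 CPM at 1 d and 663, 435, 901 and 646 CPM at 7 d (log2 change 4.75 ± 0.91 (SE), edgeR adjusted p = 0.00637). Apoc1 lost its call without cKO 1 d replicate 2 (adjusted p = 0.0631).

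Igf1, a growth factor, was at 122, 156 and 20.6 CPM at 1 d and 620.3, 228, 572 and 490.1 CPM at 7 d, with no overlap, and changed by 2.82 ± 0.58 (SE), edgeR adjusted p = 0.0129. Igf1 lost its call without cKO 1 d replicate 2 (adjusted p = 0.109). Axl, a receptor for the engulfment of dying cells, had 81.5, 93.8 and 30.9 CPM at 1 d and 257, 286, 231 and 183 CPM at 7 d (2.26, adjusted p = 0.0349), and the mice did not overlap. Axl lost its call without WT 1 d replicate 1 (0.0599), cKO 1 d replicate 2 (0.186), WT 7 d replicate 2 (0.18), cKO 7 d replicate 1 (0.0922), cKO 14 d replicate 1 (0.0573) or cKO 14 d replicate 2 (adjusted p = 0.0573). Fabp5 had 1059, 156 and 82.4 CPM at 1 d and 2182, 1428, 1115 and 556 CPM at 7 d (2.18, adjusted p = 0.0468), where WT 1 d replicate 1 lay within the range of 7 d. Fabp5 lost its call without WT uninjured replicate 1 (0.058), WT uninjured replicate 2 (0.0586), cKO 1 d replicate 1 (0.0701), cKO 1 d replicate 2 (0.149), WT 7 d replicate 1 (0.0763), WT 7 d replicate 2 (0.128) or cKO 7 d replicate 1 (adjusted p = 0.138). In all, 6 of the 24 damage-associated microglia genes rose (Apoe, Gpnmb, Cst7, Axl, Igf1, Fabp5), none fell, and the list's median was 1.17 against 0.52 for all genes. Of all genes tested, 0.486% were called higher. The list holds the 5 markers given, and all lists were chosen with earlier results of these data known. Counts by list are therefore descriptions and no independent evidence. Spp1 and Lpl were not called: Spp1 was at 10185, 8754 and 4539 CPM at 1 d and 12064, 3379, 9026 and 1225 CPM at 7 d, and Lpl at 2281, 1938 and 824 and 1219, 861, 1398 and 969 CPM. Both were already high at 1 d and overlapped between the times. Of 22 lipid handling genes 17 were tested; Apoe, Apoc1 and Fabp5 rose and the scavenger receptor Msr1 fell, with a median of 0.67. Of the 5 activated microglia markers given, Apoe and Gpnmb rose and none fell (median 1.57).

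**Figure D2:**
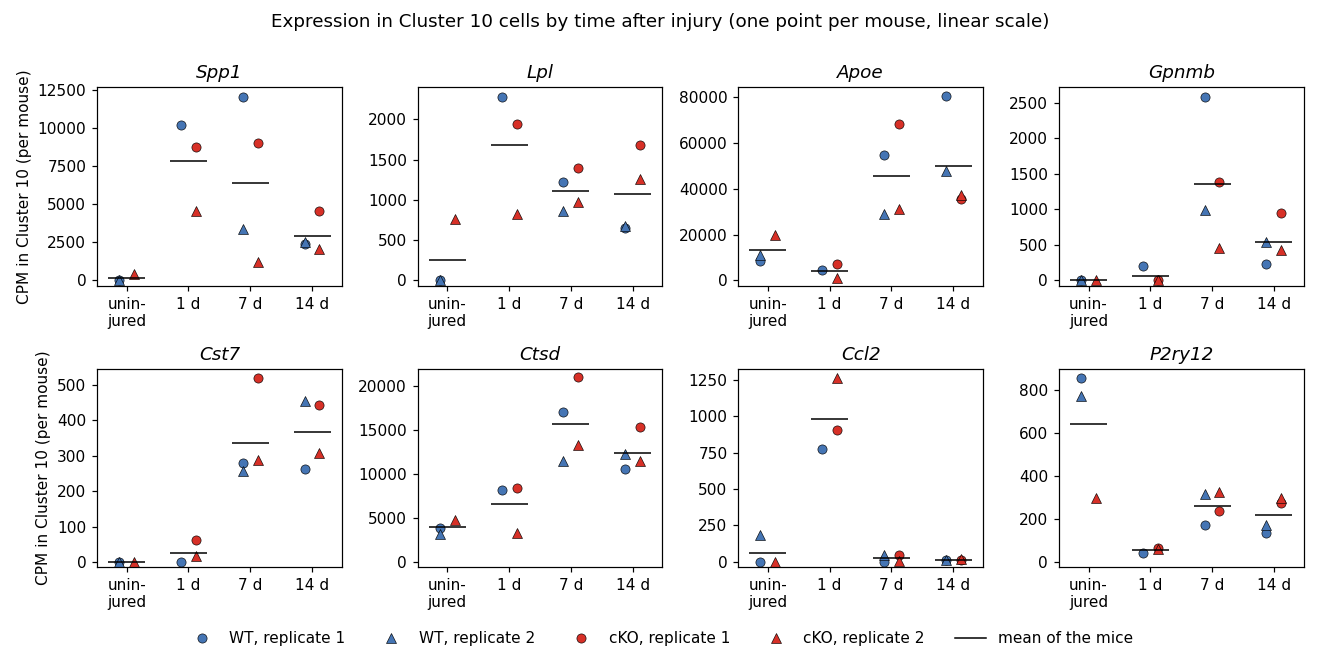
CPM in Cluster 10 (vertical axes, linear) by time (horizontal axes) for Spp1, Lpl, Apoe, Gpnmb, Cst7, Ctsd, Ccl2 and P2ry12: each circle is replicate 1 and each triangle replicate 2 of WT (blue) or cKO (red), and the short horizontal lines mark the mean of the mice at each time. Ccl2 is highest in the 3 mice at 1 d (774, 907 and 1262 CPM) and Apoe lowest in them (4726, 7003 and 933 CPM).

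Other genes that rose between 1 d and 7 d include receptors of myeloid cells. Colec12, a scavenger receptor, had 0, 0 and 5.15 CPM at 1 d and 342, 124, 312 and 152 CPM at 7 d; with 1 UMI at 1 d its pooled ratio was 48.5 (95% counting interval 8.56 to 1929), its fitted log2 change 7.16 and edgeR adjusted p = 0.00455, and its call was kept without any 1 mouse. Csf3r, the receptor of granulocyte colony-stimulating factor, had 0, 0 and 77.3 CPM at 1 d and 149.7, 289.8, 214 and 331 CPM at 7 d (fitted log2 change 5.59 ± 1.26 (SE), edgeR adjusted p = 0.0236, pooled ratio 4.63 (95% counting interval 2.74 to 8.42)), and it was the one gene of the neutrophil list that rose. Its fitted log2 change was 2.19 without WT 1 d replicate 1 and 9.15 without cKO 1 d replicate 2. Csf3r lost its call without WT 1 d replicate 1 (0.0927), WT 7 d replicate 2 (0.191) or cKO 7 d replicate 2 (adjusted p = 0.0538). Cd300a, Gm5086, Pnpla7, Rasa4 and Rcbtb2 were called as well, and each lost its call without at least 1 mouse.

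P2ry12, the ADP receptor of resting microglia, was lowest at 1 d. It stood at 856, 768 and 297 CPM without injury, 40.7, 62.5 and 61.8 CPM at 1 d, 171, 315, 237 and 323 CPM at 7 d and 136, 172, 273 and 295 CPM at 14 d, with all 3 mice at 1 d below all others. The rise to 7 d was 2.67 ± 0.59 (SE), edgeR adjusted p = 0.0223. P2ry12 lost its call without WT 1 d replicate 1 (0.0544), cKO 1 d replicate 2 (0.0651), WT 7 d replicate 2 (0.191) or cKO 7 d replicate 2 (adjusted p = 0.056). It was the one of 14 microglia identity genes that was called (median 1.08, or 0.99 with bounds). Lyz2 was at 2037, 1251 and 299 CPM at 1 d and 8599, 7192, 5856 and 2213 CPM at 7 d, without overlap, and changed by 2.62 ± 0.58 (SE), edgeR adjusted p = 0.0223. Lyz2 lost its call without cKO 1 d replicate 2 (0.0823), WT 7 d replicate 2 (0.0838) or cKO 7 d replicate 1 (adjusted p = 0.072). Lyz2 was the gene that rose among the 6 tested of 13 monocyte and macrophage genes (median 1.28, or 1.14 with bounds), a list whose sum overlapped between the times only in WT 1 d replicate 1 and cKO 7 d replicate 2; its part in these changes was not tested.

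Msr1, C5ar1, Adam8, Manf, Cycs and Tgfbi fell as well. Msr1, a scavenger receptor for modified lipoproteins, had 448, 375 and 453 CPM at 1 d and 64.2, 12.4, 92.4 and 81.7 CPM at 7 d (-2.98, adjusted p = 0.00455). Msr1 lost its call without WT 7 d replicate 2 (adjusted p = 0.149). C5ar1, the receptor of complement fragment C5a, had 693, 657 and 289 CPM at 1 d and 42.8, 108, 109.7 and 167 CPM at 7 d (-1.94, adjusted p = 0.0157). C5ar1 lost its call without WT 1 d replicate 1 (0.159), WT 7 d replicate 2 (0.054) or cKO 7 d replicate 1 (adjusted p = 0.0522). Adam8, a membrane metalloprotease, had 448, 219 and 309 CPM at 1 d and 85.6, 8.28, 69.3 and 27.2 CPM at 7 d (-3.12, adjusted p = 0.00478). Adam8 lost its call without cKO 1 d replicate 2 (0.0631) or WT 7 d replicate 2 (adjusted p = 0.131). In these 3 genes every mouse at 1 d was above every mouse at 7 d. Manf, a protein induced by stress of the endoplasmic reticulum, had 896, 469 and 443 CPM at 1 d and 171, 99.4, 98.2 and 93.4 CPM at 7 d (-2.26, adjusted p = 0.00478). Manf lost its call without WT 7 d replicate 2 (adjusted p = 0.102). Cycs, cytochrome c, had 489, 188 and 361 CPM at 1 d and 42.8, 41.4, 75.1 and 70.0 CPM at 7 d (-2.52, adjusted p = 0.0129). Cycs lost its call without WT 1 d replicate 1 (0.0891), cKO 1 d replicate 2 (0.174) or WT 7 d replicate 2 (adjusted p = 0.149). Again the times did not overlap in both. Tgfbi, a secreted matrix protein, had 529.6, 281 and 61.8 CPM at 1 d and 64.2, 41.4, 34.7 and 58.3 CPM at 7 d (-2.08, adjusted p = 0.0407). Tgfbi lost its call without WT 1 d replicate 1 (0.449), cKO 1 d replicate 1 (0.101), WT 7 d replicate 2 (0.269), cKO 7 d replicate 1 (0.0866) or cKO 7 d replicate 2 (adjusted p = 0.0618). Tgfbi changed by -1.16 without WT 1 d replicate 1. With replicate number, which equals the batch of the deposited cell table, as a block, Tgfbi was not called (adjusted p = 0.0571). In Tgfbi cKO 1 d replicate 2 lay within the range of 7 d. Dot1l, Dpy30 and Glrx also fell, and each lost its call without each of 4 mice in turn. Msr1, C5ar1 and Axl were the called genes among 21 of complement and phagocytic receptors, 1 higher and 2 lower (median 0.29), and Tgfbi was the one among 13 tested of 14 matrix and cytoskeleton genes (median -0.20).

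Several groups had no called member between 1 d and 7 d. All 27 lysosomal genes were tested and none passed (median 0.83 against 0.52). Ctsd, the most abundant of them, was at 3891, 3183 and 4796 CPM without injury, 8107, 8409.9 and 3262 CPM at 1 d, 17006, 11465, 21016 and 13249 CPM at 7 d and 10533, 12255, 15267 and 11411 CPM at 14 d. Its mice at 7 d were all above those at 1 d, and 14 d overlapped with 7 d. Ctsb, a cysteine protease, had 5418, 5377 and 3225 CPM at 1 d and 7316, 5768, 8143 and 5123 CPM at 7 d. Psap, the precursor of the saposins that help to break down sphingolipids, had 1629.6, 1251 and 696 CPM at 1 d and 3893, 3172, 3280.2 and 1839.9 CPM at 7 d. Neither was called. Antigen presentation had 10 of 11 genes tested (median 1.74), with B2m, the light chain of antigen-presenting molecules, the most abundant at 815, 1407 and 948 CPM at 1 d and 2139, 3275, 3303 and 2042 CPM at 7 d. The immediate early genes, which respond within minutes to a stimulus and include Fos and Junb, had 15 of 15 tested and a median of 2.18 (1.81 with bounds). Interferon response genes had 6 of 16 tested (median 0.55), cell cycle genes 7 of 22 (0.46), iron and heme genes 7 of 8 (-0.02), and glycolysis and hypoxia genes 16 of 16 (0.12, or -0.02 with bounds). Cell cycle genes summed to 156 to 782 CPM per mouse, and Mki67, a marker of dividing cells, had 8 UMIs in Cluster 10.

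Marker lists of other cells had few or no calls between these times. In the astrocyte list 6 of 7 genes were tested (median 3.22), in the oligodendrocyte list 6 of 7 (1.14), in the neuron list 5 of 7 (2.07), in the endothelial list 4 of 6 (0.30), in the red blood cell list 4 of 5 (-3.11) and in the border-associated macrophage list 4 of 8 (-0.19), all with 0 called by edgeR. The neutrophil list had 2 of 10 tested and Csf3r called (median 1.05, or 0.87 with bounds). No gene of the dendritic cell, lymphocyte and fibroblast lists had enough UMIs to be tested. The astrocyte list summed to 163, 31.3 and 639 CPM at 1 d and 128, 385, 191 and 996 CPM at 7 d, with overlap, and the share of these cells' RNA in the changes of Cluster 10 was not tested.

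Promoters of the lists were searched for short motifs. The sequences are RefSeq promoters of GRCm38.p6, 300 bases around a transcription start (a gene may have several), and letters were searched on both strands. TCACGTG, the core of the element bound by TFEB, a regulator of lysosomal genes, occurred in promoters of 4.29% of 27025 genes and in 7 of the 21 lysosomal genes matched of 27 (33.3%): Atp6v1a, Ctsa, Ctsd, Gla, Lamp1, Lgmn and Mcoln1. It occurred in 1 of 19 matched damage-associated genes, 1 of 12 lipid handling genes and 1 of 17 leading genes. TGANTCA includes the sites of AP-1 factors, which have C or G in the middle, and also runs with A or T there. It occurred in promoters of 8.97% of all genes and in 6 of the 19 damage-associated genes matched of 24 (31.6%): Cd68, Cst7, Gpnmb, Igf1, Itgax and Trem2. It occurred in 2 of 21 lysosomal genes, 1 of 12 lipid handling genes and 7 of 17 leading genes (41.2%), of which Bcl2a1a, Bcl2a1b and Bcl2a1d are near-identical copies. A match is a run of letters and no measured binding, and no test of these shares was made. The shares for TGANTCA are not counts of AP-1 sites. In the promoters printed below, the match reads TGACTCA in Gpnmb, TGATTCA in Cst7 and TGAATCA in Igf1.

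Promoters of 4 genes are printed, with matches in capitals: 3 genes that rose between 1 d and 7 d and have TGANTCA (Gpnmb, chr6:49036268-49036567, plus strand; Cst7, chr2:150570165-150570464, plus strand; Igf1, chr10:87860861-87861160, plus strand) and Ctsd (chr7:142387778-142388077, minus strand), the most abundant lysosomal gene, with 3 matches to TCACGTG, of which a pair overlaps on opposite strands; the Igf1 entry lies inside the gene (chr10:87858265-87937042, plus strand) and so belongs to a later start.
Gpnmb: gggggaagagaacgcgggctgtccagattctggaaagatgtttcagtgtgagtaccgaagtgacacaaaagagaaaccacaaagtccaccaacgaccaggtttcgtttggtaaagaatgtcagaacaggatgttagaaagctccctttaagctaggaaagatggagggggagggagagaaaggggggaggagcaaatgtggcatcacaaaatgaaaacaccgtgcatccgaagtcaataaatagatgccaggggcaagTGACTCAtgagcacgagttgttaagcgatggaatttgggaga
Cst7: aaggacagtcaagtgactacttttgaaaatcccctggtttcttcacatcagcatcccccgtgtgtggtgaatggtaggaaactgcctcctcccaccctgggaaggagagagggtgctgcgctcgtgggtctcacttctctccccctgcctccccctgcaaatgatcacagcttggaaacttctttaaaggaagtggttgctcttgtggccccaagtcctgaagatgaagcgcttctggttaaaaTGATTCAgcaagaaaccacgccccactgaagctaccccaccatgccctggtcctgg
Igf1: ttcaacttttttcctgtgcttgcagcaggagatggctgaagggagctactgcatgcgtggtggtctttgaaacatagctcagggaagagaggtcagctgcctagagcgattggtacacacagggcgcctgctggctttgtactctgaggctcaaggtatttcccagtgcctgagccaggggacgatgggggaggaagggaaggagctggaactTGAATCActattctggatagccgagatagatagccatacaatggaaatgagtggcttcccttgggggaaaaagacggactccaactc
Ctsd: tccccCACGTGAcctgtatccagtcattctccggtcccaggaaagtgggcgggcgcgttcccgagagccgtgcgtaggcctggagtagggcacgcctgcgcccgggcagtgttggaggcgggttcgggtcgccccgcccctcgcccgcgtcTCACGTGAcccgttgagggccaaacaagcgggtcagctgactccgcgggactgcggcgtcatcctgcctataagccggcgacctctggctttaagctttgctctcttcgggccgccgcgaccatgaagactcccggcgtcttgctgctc

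The next comparison asks how Cluster 10 cells of the injured cord (11 mice, mean over the times and genotypes) differ from the few Cluster 10 cells of the uninjured cord (3 mice, 57 cells). The genotypes weigh equally in the fitted change, so cKO uninjured replicate 2 alone is the baseline of cKO. Spp1, Lpl, Fn1, Lgals1 and Lgals3 were among the genes called higher after injury, and Hpgd, Cst3 and mt-Rnr2 among those called lower. edgeR called 37 of 6788 genes (0.545%), 24 higher after injury (0.354%) and 13 lower (0.192%). In 23 of the 37 the mice did not overlap, again counted among called genes only and with no share over all genes. DESeq2 called 45, and 736 had an unadjusted p under 0.05. The directions again depended on the setting, with 20 higher and 25 lower by DESeq2, 11 higher and 3 lower without the shallow mice, 25 higher and 8 lower with the replicate block and 4 higher and 6 lower without the mice named otherwise. The median of all genes was 1.02 (0.56 with genes at 0 UMIs at their bound) and moved by -0.82 with DESeq2, by 0.54 under the cell names, by -0.15 with no filter, by 0.15 without the shallow mice, by -0.62 in thinned cells, by -0.67 without the mice named otherwise, and with 1 mouse left out by up to -0.86 (without cKO uninjured replicate 2) and 0.78 (without WT uninjured replicate 1). Grouping by the cell names left 2 calls (Lpl and Spp1, both higher), and thinned cells 0 by edgeR. Leaving out 1 mouse gave 0 without WT uninjured replicate 2, 10 without cKO uninjured replicate 2 and 21 without WT 7 d replicate 1. Mitochondrial share, which was higher without injury in 2 of 3 mice than in every injured mouse, moves with this comparison, and its part was not tested.

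Here too the calls of the genes whose values are given next depended on the settings, and log2 changes are given by the same rule, except for genes with 0 UMIs without injury (Abcg1, Fn1 and Lgals1). By DESeq2 Abcg1 (adjusted p = 0.05001) was not called. The log2 change there was 3.94 for Lpl, 3.63 for Abca1 and 3.22 for Igf1. Without the 4 shallow mice Spp1, Lpl, Abca1, Abcg1, Fabp5 and Fn1 kept their calls, and the other 8 had adjusted p from 0.0502 to 0.279. Without the mice named otherwise Spp1, Lpl, Fabp5 and Lgals3 kept their calls, and the other 10 had adjusted p from 0.147 to 0.696. The log2 change there was 11.08 for Lpl, 0.91 for Abca1, 11.43 for Fabp5, 11.08 for Lgals3, 9.06 for Igf1, -1.31 for Hpgd, -0.96 for Cst3, -0.83 for mt-Rnr2 and 3.45 for Ccl4. Under the cell names Spp1 and Lpl kept their calls, and the other 12 had adjusted p from 0.0627 to 0.49. There the change was 10.26 for Spp1, 11.19 for Lpl, 2.35 for Abca1, 7.03 for Fabp5, 7.22 for Lgals3, 9.14 for Igf1, -1.20 for Hpgd, -1.14 for mt-Rnr2 and 1.46 for Ccl4. In thinned cells no gene kept its call, and the 13 tested had adjusted p from 0.062 to 0.548. The log2 change there was 3.12 for Igf1 and -0.75 for Ccl4.

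Spp1, Lpl, Abca1, Abcg1 and Fabp5 rose; where a group of uninjured mice is at 0 UMIs the fitted change is unstable, so pooled ratios are given beside it. Spp1, at 38.9, 0 and 424 CPM without injury, ran from 1225 to 12064 CPM after it, with every injured mouse above every uninjured one. Its log2 change was 6.03 ± 0.85 (SE), edgeR adjusted p = 0.000377; pooled, it was 39.2, 31.6 and 21.8 times the uninjured level at 1 d, 7 d and 14 d. Spp1 lost its call without WT uninjured replicate 2 (adjusted p = 0.064). Lpl was at 0, 0 and 764 CPM without injury, 2281, 1938 and 824 CPM at 1 d, 1219, 861, 1398 and 969 CPM at 7 d and 656, 676, 1679.8 and 1259 CPM at 14 d. The mouse cKO uninjured replicate 2 overlapped with the injured range, and the fitted change was 6.06 ± 0.92 (SE), edgeR adjusted p = 0.000964, with pooled ratios of 4.72, 4.48 and 4.95 at the 3 times. The fitted change of Lpl was 11.28 without cKO uninjured replicate 2. Lpl lost its call without WT uninjured replicate 2 (adjusted p = 0.064). The cholesterol exporter Abca1 had 233, 36.6 and 0 CPM without injury and 227 to 856 CPM (median 499) after it (fitted 5.88 ± 1.19 (SE), edgeR adjusted p = 0.0189; pooled ratios 2.75, 7.31 and 5.63). The fitted change of Abca1 was 1.82 without cKO uninjured replicate 2. Abca1 lost its call without WT uninjured replicate 2 (0.182) or cKO uninjured replicate 2 (adjusted p = 0.45). Its partner Abcg1 had 0 UMIs without injury and was higher by at least 2.14-fold at 1 d, 5.37-fold at 7 d and 4.24-fold at 14 d (adjusted p = 0.0292), against a floor of 3 UMIs pooled over the uninjured mice. Abcg1 lost its call without WT uninjured replicate 1 (0.0739), WT uninjured replicate 2 (0.182) or cKO uninjured replicate 2 (adjusted p = 0.276). Fabp5 had 0, 73.2 and 127 CPM without injury and 82.4 to 2182 CPM (median 879) after it, with overlap (3.52 ± 0.72 (SE), edgeR adjusted p = 0.0191; pooled ratios 2.87, 16.7 and 12.01). Its fitted log2 change was 6.60 without WT uninjured replicate 2. Fabp5 lost its call without WT uninjured replicate 1 (0.115) or WT uninjured replicate 2 (adjusted p = 0.182).

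Fn1, Lgals1 and Lgals3 rose as well. Fn1, fibronectin, had 0 UMIs without injury and 978, 1251 and 191 CPM at 1 d, 770.1, 315, 514 and 548 CPM at 7 d and 142, 561, 417 and 163 CPM at 14 d, higher by at least 10.3-fold at 1 d, 12.2-fold at 7 d and 9.43-fold at 14 d (edgeR adjusted p = 0.00751). Fn1 lost its call without WT uninjured replicate 1 (0.0625) or WT uninjured replicate 2 (adjusted p = 0.182). Lgals1, a galectin that binds matrix sugars, also had 0 UMIs without injury and was higher by at least 7.64-fold at 1 d, 4.41-fold at 7 d and 2.82-fold at 14 d (adjusted p = 0.0251). Lgals1 lost its call without WT uninjured replicate 1 (0.0892), WT uninjured replicate 2 (0.194) or cKO uninjured replicate 2 (adjusted p = 0.0897). Lgals3 had 0, 36.6 and 169.8 CPM without injury and 198 to 1426 CPM (median 564) after it (3.63 ± 0.81 (SE), edgeR adjusted p = 0.0292; pooled ratios 6.60, 6.23 and 8.12). The fitted change of Lgals3 was 6.22 without WT uninjured replicate 2 and 5.72 without cKO uninjured replicate 2. Lgals3 lost its call without WT uninjured replicate 1 (0.2) or WT uninjured replicate 2 (adjusted p = 0.27). Each injured mouse exceeded each uninjured mouse in all 3 of these genes. With Spp1 they were the 4 called of 13 tested matrix and cytoskeleton genes (fitted median 5.01, 1.72 with bounds, against 1.02 and 0.56 for all genes), and Fn1 was the one called of the monocyte and macrophage list (3.93 and 0.81), whose sum was also higher after injury in most mice.

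Igf1 and Ctsb rose too. Igf1 had 2 UMIs without injury, and its pooled ratio was 1.83 (95% counting interval 0.408 to 16.9) at 1 d, 16.5 (95% counting interval 4.52 to 137) at 7 d and 15.99 (95% counting interval 4.42 to 132) at 14 d (fitted log2 change 5.31, adjusted p = 0.0439). Igf1 changed by 9.16 without cKO uninjured replicate 2. Igf1 lost its call without WT uninjured replicate 1 (0.175), WT uninjured replicate 2 (0.288), cKO uninjured replicate 2 (0.0897), WT 7 d replicate 1 (0.0579) or cKO 7 d replicate 1 (adjusted p = 0.0507). Ctsb had 1751, 1317 and 1655 CPM without injury and 3225 to 8143 CPM (median 5377) after it, with no overlap (1.93 ± 0.42 (SE), edgeR adjusted p = 0.0272). Ctsb lost its call without WT uninjured replicate 1 (0.0652), WT uninjured replicate 2 (0.182), cKO uninjured replicate 2 (0.0966), WT 7 d replicate 1 (0.0509) or cKO 14 d replicate 1 (adjusted p = 0.0517). Ctsb was the one called of 27 lysosomal genes (fitted median 1.33, 1.30 with bounds). Arhgap24, Aup1, Dab2, Ell2 and Mdfic were called higher as well, and each lost its call without at least 2 of the uninjured mice in turn. Cst7 and Gpnmb had 0 UMIs without injury too and were higher at 7 d by at least 8.49-fold (Cst7) and 25.4-fold (Gpnmb), and at 14 d by 10.1-fold and 15.99-fold; neither was called over all injured mice, and each had 5 UMIs at 1 d.

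Hpgd, Cst3, mt-Rnr2 and Ccl4 were called lower after injury. Hpgd, which breaks down prostaglandins, had 389, 512 and 764 CPM without injury and 29.7 to 202 CPM (median 125) after it (-2.08 ± 0.43 (SE), edgeR adjusted p = 0.0221). Hpgd lost its call without WT uninjured replicate 2 (0.288) or cKO uninjured replicate 2 (adjusted p = 0.297). Cst3, the secreted protease inhibitor cystatin C, had 34509.6, 47823 and 38919 CPM without injury and 8939.8 to 22094 CPM (median 11029) after it (-1.61 ± 0.36 (SE), edgeR adjusted p = 0.0292). Cst3 lost its call without WT uninjured replicate 1 (0.0597), WT uninjured replicate 2 (0.324), cKO uninjured replicate 2 (0.297), cKO 1 d replicate 1 (0.0581) or WT 7 d replicate 1 (adjusted p = 0.062). The mitochondrial ribosomal RNA mt-Rnr2 had 15173, 30296 and 32001 CPM and 4913 to 11557 CPM (median 6014) (-1.83 ± 0.35 (SE), edgeR adjusted p = 0.0129). mt-Rnr2 lost its call without WT uninjured replicate 2 (0.27) or cKO uninjured replicate 2 (adjusted p = 0.276). All uninjured mice were above all injured mice in these 3 genes. The chemokine Ccl4 was at 117, 2927 and 9931 CPM without injury, 1426, 1657 and 2308 CPM at 1 d, 385, 505, 669.9 and 611 CPM at 7 d and 1632, 859, 308 and 682 CPM at 14 d, with overlap, and was called lower after injury (-1.98 ± 0.45 (SE), edgeR adjusted p = 0.0301). That call depended on cKO uninjured replicate 2 and WT uninjured replicate 2: the log2 change was -0.64 without the former, -0.01 without the latter, and 1.46 under the cell names. Ccl4 lost its call without WT uninjured replicate 2 (1), cKO uninjured replicate 2 (0.777) or WT 7 d replicate 1 (adjusted p = 0.0532). With the replicate block its adjusted p was 0.125.

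By list, the damage-associated genes had 6 of 24 higher after injury (Spp1, Lpl, Ctsb, Fabp5, Lgals3 and Igf1) and none lower, with a median of 1.64 both fitted and with bounds. Of all genes tested, 0.354% were called higher and 0.192% lower. The damage-associated list holds the 5 markers given, and all lists were chosen with earlier results of these data known, so these counts are descriptions. Lipid handling had 4 of 17 tested higher (Lpl, Fabp5, Abca1 and Abcg1; median 5.37, 2.37 with bounds), and of the 5 activated microglia markers given Spp1 and Lpl were higher (6.03, 4.07 with bounds). Chemokines and cytokines had 1 lower of 17 (1.66, 0.76 with bounds). Besides these 4 lists and the matrix and cytoskeleton (4), lysosomal (1) and monocyte and macrophage (1) lists, each list had 0 called by edgeR in this comparison, microglia identity included. P2ry12 (856, 768 and 297 CPM without injury, 40.7 to 323 CPM (median 172) after it) and Selplg, the P-selectin ligand (1673, 768 and 764 against 204 to 444 CPM (median 341)), had their highest values without injury but were not called.

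In the later comparison, 14 d against 7 d, 1 gene passed the test, which does not show that other levels were the same. 1 of 6788 genes was called by edgeR (0.0147%), Ahnak, and it fell; DESeq2 called 1 other gene and not Ahnak (adjusted p = 0.162), and 234 genes had an unadjusted p under 0.05. Ahnak, a large scaffold protein (chr19:8989284-9076914, plus strand), had 42.8, 91.1, 17.3 and 54.5 CPM at 7 d and 2.96, 1.24, 12.3 and 9.89 CPM at 14 d, with every mouse at 14 d below every mouse at 7 d. These values rest on few UMIs: 2, 22, 3 and 14 at 7 d and 1, 1, 12 and 6 at 14 d. The lowest mouse at 7 d (17.3 CPM) had 3 UMIs and the highest at 14 d (12.3 CPM) had 12. The log2 change of Ahnak was -3.40, SE 0.59, edgeR adjusted p = 0.0161. Ahnak lost its call without WT uninjured replicate 1 (0.0527), WT 7 d replicate 2 (0.849), cKO 7 d replicate 2 (0.477) or WT 14 d replicate 2 (adjusted p = 0.124). The log2 change was -2.16 under the cell names (adjusted p = 0.78) and -2.42 without the mice named otherwise (0.962). No list had a called gene; list medians ran from -4.36 (red blood cell) to 0.79 (immediate early genes), with -1.30 for border-associated macrophage and -0.83 for interferon response, and the median of all genes was 0.06, moved by 0.26 with no filter and by 0.12 under the cell names. Spp1 had 12064, 3379, 9026 and 1225 CPM at 7 d and 2403, 2547, 4539.7 and 2074 CPM at 14 d, Ccl12 149.7, 182, 75.1 and 136 and 29.6, 16.1, 26.6 and 46.2 CPM. In Ccl12 all mice at 14 d were below all mice at 7 d, but it was not called. The count was 11 with the replicate block and 0 under the cell names, in thinned cells or without the mice named otherwise; leaving out 1 mouse gave 0 without WT uninjured replicate 1, 2 without WT 7 d replicate 1 or WT 14 d replicate 2, 3 without cKO 7 d replicate 2 or cKO 14 d replicate 1, 4 without WT 7 d replicate 2, 7 without cKO 14 d replicate 2, 8 without cKO 1 d replicate 1, 9 without cKO 1 d replicate 2 and 12 without WT 14 d replicate 1.

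The study's own comparison is cKO against WT, and in Cluster 10 only Gm11942 at 14 d differed between the genotypes by these tests. Over the 3 times after injury edgeR called 0 of 6788 genes (0%), 218 had an unadjusted p under 0.05, and 0 were called by DESeq2. At 1 d it called 0 (0%; 242 unadjusted, 0 by DESeq2), at 7 d 0 (0%; 177 unadjusted, 0 by DESeq2) and at 14 d 1, Gm11942 (0.0147%; 140 unadjusted, 0 by DESeq2). A change of the genotype difference from the earlier times to 14 d was called in 0 genes (0%; 284 unadjusted, 0 by DESeq2). WT at 1 d is a single mouse, and its error is taken from the other groups. No list had a called gene in these comparisons. The median log2 difference of all genes was 0.24 over the 3 times, 0.60 at 1 d, 0.04 at 7 d, -0.01 at 14 d and -0.53 for the change to 14 d, and DESeq2 moved it by -0.17, -0.37, -0.07, 0.06 and 0.42. Over the 3 times it also moved by -0.26 without the shallow mice, by -0.21 in thinned cells and by 0.16 with no filter or without the mice named otherwise, at 1 d by -0.59 under the cell names, -0.52 thinned and -0.60 with no filter, and at 7 d by 0.33 under the cell names and 0.18 without the mice named otherwise. The change to 14 d moved by -0.12 with no filter, 0.35 under the cell names, 0.50 without the shallow mice, 0.32 thinned and -0.24 without the mice named otherwise. Over the 3 times the count was 1 with the replicate block and 6 without the 4 shallow mice, and leaving out 1 mouse gave 1 without WT 7 d replicate 1, cKO 7 d replicate 2 or WT 14 d replicate 2 and 2 without WT 1 d replicate 1. At 7 d it was 4 with the block and 2 without the shallow mice, and 1 without WT 7 d replicate 1, cKO 7 d replicate 1 or cKO 7 d replicate 2, 3 without cKO 1 d replicate 2, 4 without cKO 14 d replicate 1 or cKO 14 d replicate 2, 5 without WT 14 d replicate 1 and 6 without WT 14 d replicate 2. At 1 d grouping by the cell names gave 18 and leaving out cKO 1 d replicate 1 gave 1, and the change to 14 d had 1 without WT 1 d replicate 1 or cKO 14 d replicate 2. At 14 d it was 5 with the block (2 higher, 3 lower), 3 under the cell names (all lower) and 4 without the shallow mice (2 higher, 2 lower), 1 lower gene without the mice named otherwise, and 0 without WT uninjured replicate 1 or WT uninjured replicate 2, 2 without WT 7 d replicate 1 or WT 7 d replicate 2, 3 without cKO 7 d replicate 2, 4 without cKO 1 d replicate 1, cKO 1 d replicate 2 or cKO 7 d replicate 1, 5 without WT 14 d replicate 2 and 16 without WT 14 d replicate 1.

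The ranges of the markers after injury overlapped between the genotypes. Spp1 averaged 6116 ± 4636 CPM in WT (SD, n = 5) and 5026 ± 3272 CPM in cKO (n = 6), a log2 difference of -0.20 ± 0.41 (SE). Apoe averaged 43215 ± 28347 CPM in WT (SD, n = 5) and 30029 ± 24237 CPM in cKO (n = 6) (-0.30 ± 0.41 (SE)). These means and SDs mix the 3 times, and 1 of 5 WT mice but 2 of 6 cKO mice are of 1 d. Lpl averaged 1139 ± 678 CPM in WT (SD, n = 5) and 1345 ± 421 CPM in cKO (n = 6) (0.23 ± 0.31 (SE)). Ctsd averaged 11873 ± 3265 CPM in WT (SD, n = 5) and 12102 ± 6051 CPM in cKO (n = 6) (0.04 ± 0.33 (SE)). Both were found in all mice after injury. Gpnmb averaged 911 ± 989 CPM in WT (SD, n = 5) and 537 ± 545 CPM in cKO (n = 6) (-2.81 ± 0.82 (SE); edgeR adjusted p = 0.944), and the fitted value depends on 1 d, where WT had 5 UMIs and cKO 0. P2ry12 averaged 167 ± 98.4 CPM in WT (SD, n = 5) and 209 ± 117 CPM in cKO (n = 6) (0.63 ± 0.48 (SE)). With 1 mouse left out, the log2 difference ran from -0.83 to -0.05 for Apoe and from 0.10 to 0.59 for Lpl. For P2ry12 it ran from 0.41 to 0.85. That of Gpnmb was -0.08 without WT 1 d replicate 1, and under the cell names that of Apoe was -1.13. The signs of the small differences of Ctsd, Spp1 and P2ry12 turned under some other settings, and none of these markers was called.

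Gm11942, a predicted gene (chr4:32964888-32965232, plus strand), had 0, 0, 112 and 104 CPM at 14 d, so both cKO mice had UMIs and both WT mice had none. At 7 d the 4 mice had 171, 0, 104 and 3.89 CPM, at 1 d 0, 125 and 129 CPM, and without injury 38.9, 0 and 0 CPM. WT mice with the transcript were found at 7 d and without injury, and cKO uninjured replicate 2 had none. The test at 14 d gave an edgeR adjusted p of 0.0251, and with WT at 0 UMIs the fitted fold is no bound. Gm11942 lost its call without WT uninjured replicate 1 (0.698), WT uninjured replicate 2 (0.742) or WT 14 d replicate 2 (adjusted p = 0.0769). It was also lost under the cell names (adjusted p = 0.38), where WT 14 d replicate 2 counts as cKO, without the mice named otherwise (0.343), with at least 30 cells per mouse and by DESeq2. The gene may share sequence with other loci, in which case its UMIs cannot be assigned with certainty.

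The share of microglia that belonged to Cluster 10 did not differ between the genotypes by the test used. Of the cells in Clusters 6 and 10, Cluster 10 made up 14.1%, 41.8%, 0% and 42.1% without injury, 28.1%, 25.5% and 55.7% at 1 d, 28.9%, 47.5%, 30.4% and 42.4% at 7 d, while at 14 d it was 44.0%, 54.5%, 57.4% and 62.5%. The uninjured values include cKO uninjured replicate 1, with 0 of 6 cells (3 counts allow up to 50%), and at 1 d WT has 1 mouse. At 14 d both cKO mice were above both WT mice, at 7 d the genotypes overlapped, and at 1 d the WT mouse lay between the cKO mice. Averaged over the times after injury, cKO exceeded WT by 7.09 percentage points (11 mice; exact 2-sided permutation of genotype within times, p = 0.454; 108 arrangements, smallest p possible 0.00926). Replicate 2, which is also the other batch, had the higher share in every group with 2 mice, and WT at 1 d has replicate 1 only; compared within replicates the difference was 2.06 percentage points (exact permutation p = 0.562; smallest p possible 0.0625). Without that pairing, the difference was 2.76 without the 4 shallow mice, 4.07 with only cells of at least 500 UMIs and 11.07 without the mice named otherwise. With 1 mouse left out it ran from 2.06 (without cKO 1 d replicate 2) to 12.1 (without cKO 1 d replicate 1). Of all cells, Cluster 10 made up 1.33%, 2.02%, 0% and 1.29% without injury, 3.32%, 3.35% and 3.20% at 1 d, 5.49%, 5.71%, 9.80% and 2.37% at 7 d, while at 14 d it was 6.90%, 5.13%, 6.52% and 5.69%. That difference between the genotypes was 0.175 percentage points (exact permutation p = 0.88). It was -1.63 without the 4 shallow mice, -1.06 without cKO 7 d replicate 1, -0.1201 without WT 14 d replicate 2 and 1.41 without cKO 7 d replicate 2. Shares were not compared between times, since genes that define the cluster differ between times.

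**Figure D3:**
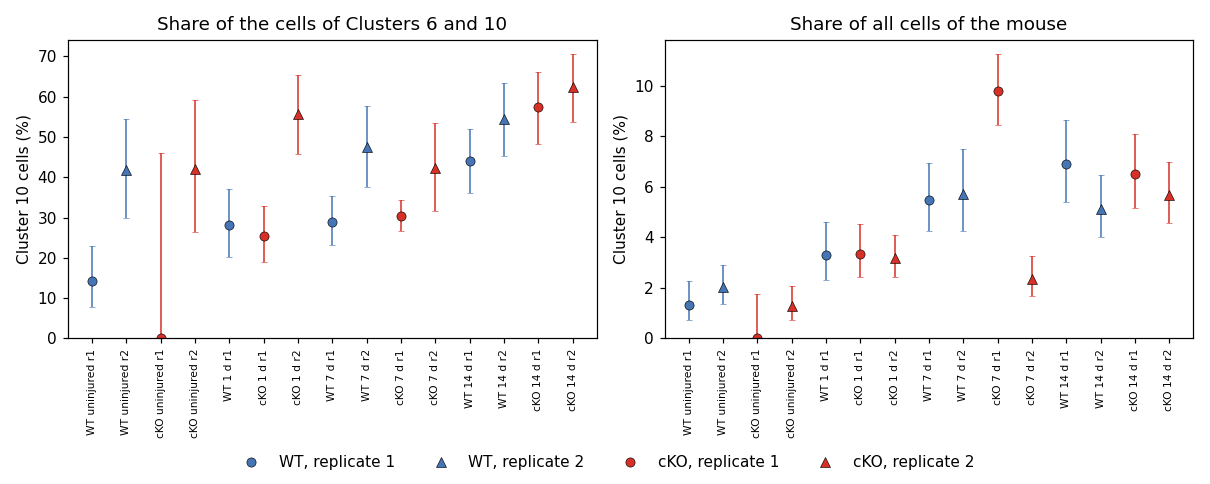
Percent of cells that belong to Cluster 10, among Clusters 6 and 10 (left) and among all cells (right), for each mouse by time and genotype, with bars for the 95% exact binomial interval. At 14 d the share of Clusters 6 and 10 is 44.0%, 54.5%, 57.4% and 62.5% in the 2 WT and the 2 cKO mice.

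Single cells show how widely the genes were expressed within Cluster 10. To compare times at 1 depth, 742 cells with at least 500 UMIs were thinned to 500 (57 without injury, 107 at 1 d, 282 at 7 d and 296 at 14 d; median UMIs before thinning 776, 877, 968 and 4607), and endothelial cells thinned in the same way serve as background. Spp1 was found in 3.51%, 42.1%, 56.4% and 24.7% of the cells at the 4 times (3.51%, 45.9%, 66.5% and 43.6% of all cells unthinned; 0.489%, 2.13%, 0.286% and 0.922% of endothelial cells). Lpl was found in 1.75%, 39.3%, 34.8% and 17.9% (3.51%, 50.4%, 47.4% and 46.3% unthinned), with at most 0.888% of endothelial cells. At 7 d, 161 of the 282 cells were from cKO 7 d replicate 1, and at 1 d 59 of the 107 from cKO 1 d replicate 2. Without the former, Spp1 at 7 d was in 33.1% and Lpl in 19.8%. Without the latter, Spp1 at 1 d was in 58.3% and Lpl in 60.4%. The order of 1 d and 7 d for Spp1 thus turned when these mice were left out. By mouse at 1 d, Spp1 was in 61.9% of cells in WT and in 55.6% and 28.8% in cKO. By mouse at 7 d, Spp1 was in 62.2% and 18.8% of cells in WT and 73.9% and 22.2% in cKO. Gpnmb was found in 0%, 0.935%, 20.9% and 6.08% (0%, 2.96%, 28.3% and 18.6% unthinned), with at most 0.230% of endothelial cells. Cst7 was found in 0%, 0.935%, 15.2% and 12.2% (0%, 2.96%, 27.4% and 45.9% unthinned), with 0% of endothelial cells. Without cKO 7 d replicate 1, Cst7 at 7 d was in 7.44%. A cell with few transcripts can show 0 UMIs at this depth. The 0% without injury (57 cells) therefore sets no limit on the share of cells that expressed either gene. Ccl2 was found in 0%, 20.6%, 1.42% and 1.35% (1.75%, 23.7%, 3.38% and 6.08% unthinned; at most 1.07% of endothelial cells), with 22 cells at 1 d and 4 at 7 d. P2ry12 was found in 29.8%, 3.74%, 16.7% and 12.8% (49.1%, 7.41%, 28.9% and 51.4% unthinned; at most 0.286% of endothelial cells), and its 4 cells at 1 d were all from cKO 1 d replicate 2.

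Apoe and Mbp RNA was also found in many endothelial cells. Apoe was found in 45.6%, 35.5%, 87.2% and 81.1% of thinned Cluster 10 cells (47.4%, 47.4%, 90.2% and 90.9% unthinned) and in 33.1%, 28.1%, 28.3% and 35.1% of endothelial cells. At 7 d and 14 d the pooled share in Cluster 10 was far above that background, and without injury and at 1 d it was closer to it. By mouse at 7 d, Apoe was in 100% and 68.75% of cells in WT and in 98.1% and 50% in cKO. Without cKO 7 d replicate 1, the share at 7 d was 72.7%. Ctsd was found in 63.2%, 73.8%, 92.9% and 82.8% (4.301%, 8.17%, 4.57% and 6.57% of endothelial cells; 77.2%, 88.1%, 93.8% and 92.2% unthinned). The myelin gene Mbp was found in 64.9%, 45.8%, 37.2% and 43.9% of Cluster 10 cells and in 56.4%, 54.9%, 45.7% and 45.6% of endothelial cells (75.4%, 64.4%, 56.9% and 89.9% unthinned), and without cKO 1 d replicate 2 it was in 25% of Cluster 10 cells at 1 d. The numbers of Spp1 cells with and without Apoe differed between times. The share of all thinned cells with Apoe differed too (35.5% at 1 d and 87.2% at 7 d). Numbers expected from these shares alone were not computed, so the counts do not show a change in co-expression. At 1 d, 20 thinned cells had both, 25 had Spp1 alone, 18 Apoe alone and 44 neither. At 7 d, 156 had both, 3 Spp1 alone, 90 Apoe alone and 33 neither, and at 14 d the numbers were 71, 2, 169 and 54. Without injury they were 1, 1, 25 and 30. By mouse, the cells at 1 d with both and with Spp1 alone numbered 7 and 6, 6 and 9, and 7 and 10, and at 7 d and 14 d no mouse had more than 2 cells with Spp1 alone, against 8 to 117 with both. Cells of a mouse are not independent, and this difference was not tested.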

How the data were processed

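Single-cell RNA was measured in spinal cords of 16 mice. The authors aligned reads with Cell Ranger to GRCm38 (mm10), filtered cells on genes per cell and on mitochondrial share, and clustered them with R 4.1.2, Seurat and Harmony. The deposited matrix holds UMI counts per cell for 55487 gene symbols, and the deposited cell table gives cluster, sample and batch. Cells were kept as deposited: doublets were not called and ambient RNA was not removed.

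UMIs were summed per mouse over Cluster 10 cells, with at least 10 cells required, and scaled to 1000000 (CPM). edgeR 4.0.16 (R 4.3.3; TMM, filterByExpr, quasi-likelihood fit of group means, Benjamini-Hochberg adjustment over all 6788 genes tested, threshold 0.05) was used for every comparison, with DESeq2 1.42.0 as the alternative. The SE is the absolute log2 fold change over the square root of F. Python 3.11.15, numpy 2.4.6, scipy 1.17.1, pandas 2.3.3 and matplotlib 3.10.9 did the rest. Shares of cells used injured mice with at least 50 cells. Levels of lists are sums of CPM. Limits for 0 UMIs use 3 counts, pooled over the mice of the group, and intervals are 95% exact intervals for counting error only.

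Named genes were those of the 25 lists, the 25 leading genes, 10 each way against Cluster 6 with at least 100 CPM in either cluster, up to 10 each way of called genes whose groups do not overlap, and P2ry12, Cd68, Apoe, Trem2 and Tyrobp. The 13 cell marker lists are microglia identity, monocyte and macrophage, border-associated macrophage, neutrophil, dendritic cell, lymphocyte, astrocyte, oligodendrocyte, neuron, endothelial cell, red blood cell, fibroblast and the activated microglia markers given. The 12 pathway lists are damage-associated microglia genes, lysosomal proteins, lipid handling, complement and phagocytic receptors, chemokines and cytokines, interferon response, antigen presentation, cell cycle, iron and heme, glycolysis and hypoxia, immediate early genes, and matrix and cytoskeleton. Members and lists were chosen with earlier results of these data known.

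The batch in the deposited cell table is the same as the replicate number for each of the 16 mice, and replicate numbers may therefore pair mice. Differences between replicates were correlated across genes for 15 pairs of groups (median r = 0.0696, from -0.103 to 0.189, 3 above 0.1), and a block for replicate was one alternative. The other alternatives were no filter except 1 count, at least 30 cells per mouse, the series of animal numbers (above or below 10000) as a term, conditions given in the cell names, cells thinned to 500 UMIs, without the 4 shallow mice, only cells with at least 500 UMIs for shares, 10 CPM as pseudocount, each mouse left out, and, chosen after seeing the data, without the mice named otherwise. Positions are from GENCODE (GRCm38), and gene identifiers were not used here.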

Additional observations from a re-analysis of the deposited data

Results flagged for a closer look

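Among 4 mice at one time, a mouse far from the other 3 was looked for in 22 groups (9 genes and 2 shares of cells) by the gap to its neighbour over the whole range, and 2 groups passed the limit; chance flags about 1 in 20 groups. At 14 d, WT replicate 1 had 2297 CPM of Trem2 in Cluster 10, and the other mice had 1434 to 1579 CPM. At 14 d the same mouse had 8029 CPM of Tyrobp, and the others 3567 to 3695 CPM. Its TMM factor was 0.682, the lowest of the 14 mice.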

How the results depend on the processing

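Counts of called genes moved with the setting by more than 1.5 times in most comparisons, and the cause was not tested. For 7 d against 1 d (51 called) they were 85 with no filter except 1 count, 111 with the animal number series as a term, 3 with the conditions of the cell names, 25 without the 4 shallow mice, 3 in cells thinned to 500 UMIs (fewer genes can be tested there) and 20 without the mice named otherwise. For injured against uninjured (37) they were 58 with the series, 2 with the cell names, 14 without the shallow mice, 0 thinned and 10 without the mice named otherwise; the setting of at least 30 cells leaves no uninjured mouse and gave no value, nor did cKO against WT at 1 d without the shallow mice. For 14 d against 7 d (1) they were 18 with no filter, 11 with the block, 14 with the series, and 0 with the cell names, thinned, or without the mice named otherwise. For cKO against WT over the times (0) they were 4 with no filter, 1 with the block, 2 with the series and 6 without the shallow mice. At 1 d (0) they were 7 with no filter and 18 with the cell names. At 7 d (0) they were 7 with no filter, 4 with the block, 2 with the series and 2 without the shallow mice. At 14 d (1) they were 0 by DESeq2, 9 with no filter, 0 with at least 30 cells, 5 with the block, 8 with the series, 3 with the cell names, 4 without the shallow mice and 0 thinned. For the change of the genotype difference (0) the count was 2 with no filter. Genes higher than in Cluster 6 numbered 93 with 10 CPM as pseudocount (57 with 50).

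With 1 mouse left out, the counts ran from 12 to 96 (7 d against 1 d), 0 to 50 (injured against uninjured), 0 to 12 (14 d against 7 d), 0 to 2 (genotype over the times), 0 to 1 (1 d), 0 to 6 (7 d), 0 to 16 (14 d) and 0 to 1 (change). The genotype difference in the share of all cells (0.175 percentage points) was -1.63 without the shallow mice and -1.06 to 1.41 with 1 mouse left out; that of Clusters 6 and 10 was 2.06 to 12.1.

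Directions turned in these results, none of them called except Ccl4. Ccl4 after injury was 1.46 with the cell names and 3.45 without the mice named otherwise. Over the times, the genotype differences with the cell names were -0.10 for Cd68, -0.10 for Ctsd, -0.37 for P2ry12 and -0.43 for Trem2; without the shallow mice they were -0.0941 for Cd68 and -0.33 for Trem2; without the mice named otherwise -0.20 for Cd68, -0.00622 for Ctsd and -0.17 for Trem2; by DESeq2 -0.0407 for Ctsd and -0.0584 for Trem2; with the series 0.0415 for Spp1; thinned 0.0343 for Tyrobp. With 1 mouse left out they ran from -0.23 to 0.40 for Cd68, -0.12 to 0.18 for Ctsd, -0.93 to 0.17 for Spp1, -0.16 to 0.23 for Trem2 and -0.51 to 0.19 for Tyrobp. The cause was not tested.

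Of the other results of named genes over all settings, 1019 kept direction and side of the threshold and 310 kept direction and lost the call. Among calls of named genes the block for replicate changed those of Ccl4 (injured against uninjured) and Tgfbi (7 d against 1 d) and no other. Tests of 9 genes (Spp1, Apoe, Lpl, Gpnmb, Ctsd, P2ry12, Cd68, Trem2 and Tyrobp) in 3 comparisons between times that were not called were first among these results and were left out after their values were seen: 22 tests with 499 refits, of which 50 had the other sign, in 13 tests. The uninjured group had 57 Cluster 10 cells, and WT at 1 d 1 mouse.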
